A study of Mus musculus with 18 samples.

Results

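The genes described here are 6 genes of the eosinophil, a white blood cell that matures in the bone marrow. Ear1 and Ear2 encode eosinophil-associated ribonucleases, Epx encodes eosinophil peroxidase, Prg2 encodes major basic protein, Prg3 encodes its homologue, and Il5ra encodes the interleukin-5 receptor alpha chain. They were chosen as a named list, and each was matched to the arrays by its RefSeq accession. Of the 6 genes, 5 have a probe, 1 probe each, and no probe was matched to Ear2. All 5 were among the 11884 genes tested, out of 17177 genes with a probe.

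The measurements come from whole bone marrow of female C3H mice, an inbred strain. Mice were 1 or 8 weeks old and were either left unirradiated (0 Gy) or given 2 Gy of gamma rays and sampled after 6 h or 24 h. Each of the 6 groups holds 3 arrays, from 3 mice per the labels, and no genotype or other treatment is named. The marrow was not sorted, so a change in a bulk level can come from fewer or more cells of a type or from less or more RNA per cell, and these cannot be told apart.

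Eosinophils arise from granulocyte progenitors under the transcription factors GATA-1, C/EBP and PU.1, and interleukin-5 is their main growth and survival factor. Their granules hold cationic proteins that damage parasites and tissue: major basic protein forms the crystalline granule core, while eosinophil peroxidase and the ribonucleases lie in the surrounding matrix. Transcripts of the granule proteins are made while the granules are being filled, in the maturing cells of the marrow, and the interleukin-5 receptor marks the lineage from its committed progenitor onward. In the mouse the Ear genes form a cluster of recent copies on chromosome 14, and Prg2 and Prg3 lie next to each other on chromosome 2.

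The promoters are shown first because they show how alike the copies of the Ear family are before their start sites and which lineage motifs lie before these genes. Each line below gives the 250 bases before the start site from RefSeq (GRCm38.p6), 5′ to 3′ on the gene's strand, at chr14:43819640-43819889 (minus) for Ear1, chr14:44102404-44102653 (plus) for Ear2, chr14:43923597-43923846 (minus) for the paralogue Ear10, chr2:84987965-84988214 (plus) for Prg3 and chr6:106749038-106749287 (minus) for Il5ra. Capitals mark a match to the C/EBP motif TTGCNNAA or to the GATA motif, AGATAA or TGATAA, on either strand.
Ear1: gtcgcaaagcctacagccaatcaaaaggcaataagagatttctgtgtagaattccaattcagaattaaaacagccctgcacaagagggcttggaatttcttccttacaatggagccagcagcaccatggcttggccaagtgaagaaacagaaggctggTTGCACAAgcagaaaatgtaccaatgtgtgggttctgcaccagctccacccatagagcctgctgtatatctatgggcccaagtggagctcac
Ear2: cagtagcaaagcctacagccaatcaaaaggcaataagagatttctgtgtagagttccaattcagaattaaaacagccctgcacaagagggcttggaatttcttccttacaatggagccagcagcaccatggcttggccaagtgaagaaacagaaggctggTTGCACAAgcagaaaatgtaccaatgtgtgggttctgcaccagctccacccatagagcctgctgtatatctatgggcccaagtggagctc
Ear10: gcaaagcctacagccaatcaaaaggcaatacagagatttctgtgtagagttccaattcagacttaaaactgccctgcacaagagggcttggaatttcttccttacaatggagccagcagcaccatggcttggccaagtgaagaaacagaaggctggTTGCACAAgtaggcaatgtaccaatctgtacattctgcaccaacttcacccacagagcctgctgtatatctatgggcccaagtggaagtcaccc
Prg3: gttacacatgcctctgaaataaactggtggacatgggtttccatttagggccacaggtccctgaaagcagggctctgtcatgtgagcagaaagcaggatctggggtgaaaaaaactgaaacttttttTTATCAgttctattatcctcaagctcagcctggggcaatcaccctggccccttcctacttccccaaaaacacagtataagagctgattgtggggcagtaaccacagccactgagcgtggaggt
Il5ra: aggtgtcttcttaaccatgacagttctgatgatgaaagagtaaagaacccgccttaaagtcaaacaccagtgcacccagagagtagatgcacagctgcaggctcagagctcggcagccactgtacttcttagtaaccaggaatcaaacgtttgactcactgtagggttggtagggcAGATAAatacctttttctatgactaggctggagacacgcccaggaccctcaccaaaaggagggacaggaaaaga
Compared end to end, the Ear1 and Ear2 stretches differ by 6 single-base edits over 250 bases. There are 21 between Ear1 and Ear10 and 57 between Ear1 and the more distant paralogue Ear6. Bases at the ends of windows that are shifted against each other count as edits. The Ear1 and Ear2 windows are shifted in this way, so their shared bases are more alike than the 6 edits give. These bases are not transcribed, and no probe sequence is used here, so whether the Ear1 probe also reads Ear2 or another copy was not tested. The values given for Ear1 are those of its probe and are uncertain as to the copy. The C/EBP match TTGCACAA starts 92 bases before the start site in Ear1, 90 in Ear2 and 94 in Ear10. The GATA match reads TTATCA in Prg3, 123 bases before the start site, and AGATAA in Il5ra, 74 bases before it. In Il5ra the PU.1 motif, GAGGAA, also starts 42 bases after the start site. None of these matches overlaps another. The Epx window holds no match to these 3 motifs. Of the 6 genes, 5 had an entry, all but Prg2. Motifs were searched on both strands from 250 bases before to 50 bases after the start, and of 32851 RefSeq windows of that length 18.6% hold a GATA match, 10.8% a C/EBP match and 28.3% a PU.1 match. A match describes the letters and not a bound site.

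Levels are log2 processed signal minus the 75th percentile of the same array, so 0 lies at that percentile and a difference of 1 is a doubling. Of 41174 probes, 21017 to 25552 per array (51.0 to 62.1%) gave signal well above background. The raw 75th percentile was 637.7 to 727.6 on the 6 unirradiated arrays and 461.5 to 574.1 on the 12 irradiated ones, without overlap, and its part in the differences below is given with the scaling. All 6 listed p53 targets were higher in each of the 4 irradiated groups, where 25.5%, 18.4%, 23.9% and 38.3% of all genes were. This checks the labels of irradiated against unirradiated arrays, and not those of age or time. Replicates correlated at r of 0.992 to 0.997 across the 11884 tested genes, apart from 1-week control replicate 2 (0.978 and 0.98). That array carried skeletal muscle transcript at a list mean of 5.69 against -1.41 and -0.56 on the other 1-week controls. Without that array all 5 genes remained higher at 1 week, and the Ear1 difference was 1.05 at 6 h and 1.19 at 24 h.

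Relative to the 75th percentile of the same array, which was lower on every irradiated array, granule transcripts were higher in irradiated marrow at both ages and both times. At 1 week all 5 tested genes were higher than in unirradiated marrow at 6 h and at 24 h, with median log2 differences of 0.70 and 0.91. At 8 weeks 4 of 5 were higher at each time, with medians of 0.47 and 0.78, and Il5ra was the gene that did not pass the test. No gene of the 5 was lower. Without scaling between arrays 2, 3, 1 and 4 of the 5 were higher in the same 4 comparisons, and Prg3 was at 0.00 at 1 week and 6 h. Of all 11884 genes 512, 558, 845 and 1583 were then called higher. With scaling the share of all genes called higher was 25.5% and 18.4% at 1 week and 23.9% and 38.3% at 8 weeks. The share called lower was 26.3%, 17.6%, 22.1% and 19.5%, with median differences of 0.00, -0.01, 0.02 and 0.12. Both times at an age were set against the same 3 control arrays, so their counts are not independent. Each difference is a limma estimate ± SE from 3 arrays a group. Its p was adjusted by Benjamini-Hochberg over the whole set of 11884 genes and called under 0.05.

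Prg2 encodes major basic protein, the toxic core protein of the granule. Its levels in 1-week marrow were 7.99, 8.17 and 7.83 unirradiated, 8.81, 8.73 and 8.76 at 6 h, and 8.95, 8.96 and 9.02 at 24 h. All irradiated arrays lay above all controls, and the 24 h arrays above the 6 h arrays. The difference from controls was 0.77 ± 0.08 at 6 h (1.70-fold, adjusted p = 1.53e-06) and 0.97 ± 0.08 at 24 h (1.97-fold, adjusted p = 2.01e-07). In 8-week marrow Prg2 was at 7.93, 8.04 and 8.07 unirradiated, 8.60, 8.35 and 8.27 at 6 h, and 8.62, 8.63 and 8.71 at 24 h. Again no irradiated array fell into the control range, and the highest 6 h array, replicate 1, came close to the 24 h arrays. The differences were smaller than at 1 week, 0.40 ± 0.08 at 6 h (1.32-fold, adjusted p = 0.00115) and 0.64 ± 0.08 at 24 h (1.56-fold, adjusted p = 7.42e-06).

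Prg3 encodes the homologue of major basic protein, also stored in the granule. In 1-week marrow its levels were 3.34, 3.55 and 3.30 unirradiated, 3.74, 3.88 and 3.84 at 6 h, and 3.95, 3.98 and 4.03 at 24 h. In 8-week marrow they were 3.33, 3.36 and 3.39, then 4.12, 3.80 and 3.75, then 4.16, 4.25 and 4.14. Irradiated and control arrays did not overlap at either age. The rise was 0.42 ± 0.08 and 0.59 ± 0.08 at 1 week (1.34- and 1.50-fold, adjusted p = 0.000453 and 3.88e-05) and 0.53 ± 0.08 and 0.83 ± 0.08 at 8 weeks (1.45- and 1.77-fold, adjusted p = 9.73e-05 and 4.31e-07). Its neighbour Prg2 had the larger 24 h difference at 1 week and Prg3 the larger one at 8 weeks, a contrast that was not tested.

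Epx encodes eosinophil peroxidase, the enzyme that makes hypohalous acids from hydrogen peroxide. At 1 week Epx was at 4.74, 4.76 and 4.42 unirradiated, 5.22, 5.16 and 5.23 at 6 h, and 5.50, 5.56 and 5.58 at 24 h. At 8 weeks it was at 3.89, 3.90 and 3.95, then 4.74, 4.29 and 4.13, then 4.77, 4.85 and 4.82. Every irradiated array exceeded its age's controls, and the 8-week 6 h group had the widest spread, 0.32 (SD), with replicate 1 near the 24 h level. Epx rose by 0.56 ± 0.11 at 6 h and 0.91 ± 0.11 at 24 h at 1 week (1.48- and 1.87-fold, adjusted p = 0.000544 and 1.17e-05). At 8 weeks it rose by 0.47 ± 0.11 and 0.90 ± 0.11 (1.39- and 1.86-fold, adjusted p = 0.00315 and 5.36e-06). Without 8-week 6 h replicate 1 the 6 h difference was 0.29 (adjusted p = 0.00997).

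Ear1 encodes a ribonuclease of the granule matrix. In 1-week marrow its probe read 4.63, 4.85 and 4.65 unirradiated, 5.76, 5.63 and 5.66 at 6 h, and 5.80, 5.87 and 5.82 at 24 h. In 8-week marrow it read 5.03, 5.23 and 5.09, then 5.91, 5.69 and 5.59, then 5.81, 5.92 and 5.98. The irradiated arrays of both ages occupy 1 common range, 5.59 to 5.98, while the controls of the 2 ages lie apart below it. The differences at 1 week, 0.98 ± 0.08 at 6 h and 1.12 ± 0.08 at 24 h (1.97- and 2.18-fold, adjusted p = 9.35e-08 and 2.63e-08), were the highest among the 4 granule genes at that age. At 8 weeks they were 0.61 ± 0.08 and 0.78 ± 0.08 (1.53- and 1.72-fold, adjusted p = 2.00e-05 and 5.42e-07).

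Il5ra encodes the chain that binds interleukin-5 and gives the receptor its specificity. Its probe was dim: it was well above background on 0 of 3 unirradiated 1-week arrays, on 2 of 3 at each later time, and on all 9 arrays of 8-week marrow, and it entered the tested set only through the 8-week groups. Levels at 1 week were -4.90, -4.60 and -4.43 unirradiated, -4.09, -3.88 and -3.87 at 6 h, and -4.26, -3.88 and -3.64 at 24 h. The irradiated arrays lay above the controls without overlap, but no control was well above background. Each control array was therefore raised to at least its lowest signal well above background. Il5ra was then 1.32-fold higher at 6 h and 1.33-fold higher at 24 h. Both irradiated means include an array not well above background, so these folds are not bounds. The fit gave 0.70 ± 0.23 (adjusted p = 0.018) and 0.72 ± 0.23 (adjusted p = 0.0228). Single arrays decided these calls. Without 1-week control replicate 1 the differences were 0.57 (adjusted p = 0.0759) and 0.59 (adjusted p = 0.0937), and the 24 h value was 0.69 (adjusted p = 0.0628) without 24 h replicate 2 and 0.58 (adjusted p = 0.106) without replicate 3. The 6 h call also ended with slide as a block (0.41, adjusted p = 0.116) and with quantile normalization (0.37, adjusted p = 0.236).

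In 8-week marrow Il5ra was at -3.73, -3.56 and -3.30 unirradiated, -3.20, -3.38 and -3.35 at 6 h, and -3.77, -3.92 and -3.08 at 24 h. The 3 groups overlap, and 24 h replicate 3 stood well above the other 2 of its group. The differences from controls were 0.22 ± 0.23 (adjusted p = 0.461) and -0.06 ± 0.23 (adjusted p = 0.837), so no change was detectable at this signal. With slide as a block the 6 h difference was 0.55 (adjusted p = 0.0436).

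**Figure D1:**
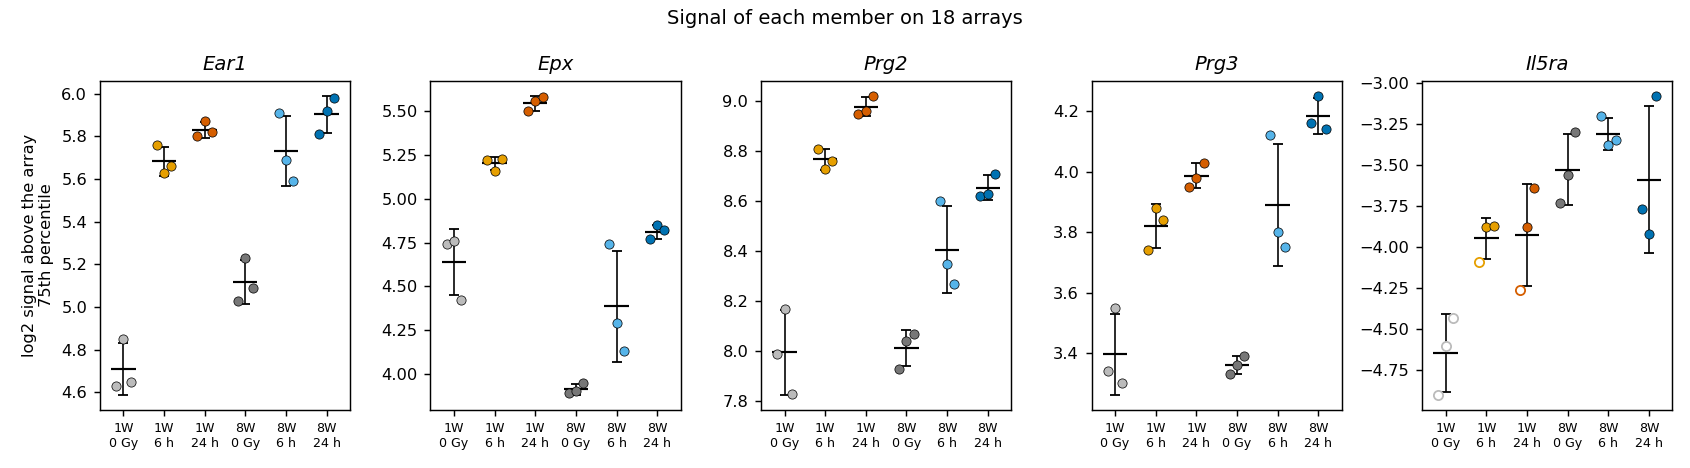
Level of each gene on each of the 18 arrays (points), as log2 signal above the array's 75th percentile, by age and condition, with the group mean and SD (bars); each panel has its own scale, and open points are arrays where the probe was not well above background. The 4 granule genes sit higher in every irradiated group than in the controls of the same age, and Il5ra overlaps between groups at 8 weeks.

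**Figure D2:**
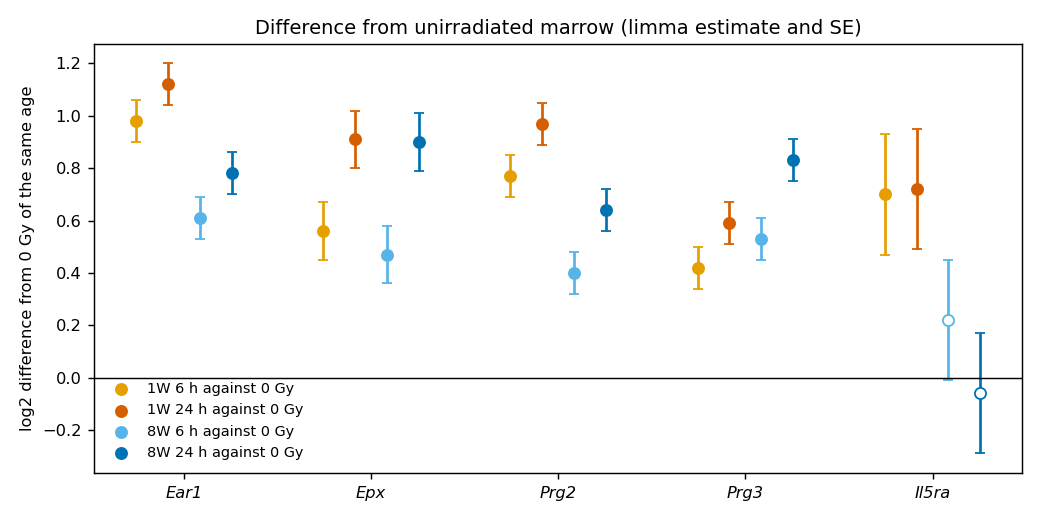
Log2 difference of each gene from unirradiated marrow of the same age, as limma estimate and SE from 3 arrays per group, with filled points called at adjusted p under 0.05. Granule genes lie between 0.40 and 1.12 in all 4 comparisons, and both Il5ra values at 8 weeks lie near 0.

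Arrays lay on 5 slides, and the granule genes were also compared between arrays of 1 slide. At 1 week and 6 h the differences on slide 1 were 1.13 for Ear1, 0.49 for Epx, 0.81 for Prg2 and 0.41 for Prg3. At 1 week and 24 h they were 0.96, 0.74, 0.77 and 0.40 in the same order on slide 2, and 1.22, 1.14, 1.13 and 0.68 on slide 3. At 8 weeks slide 3 gave 0.56, 0.23, 0.34 and 0.43 at 6 h, and slide 5 gave 0.88, 0.87, 0.63 and 0.74 at 24 h. All of these within-slide values are positive, each from 1 array against 1 other. For Il5ra they were 0.81, 0.34, 0.55, 0.39 and 0.22 in that order of slides. On slides 1 and 2 neither 1-week array was well above background, and on slide 3 the 1-week control was not. The slide 5 value rests on 8-week 24 h replicate 3, which stood well above the other 2 of its group. The positive sign of the Il5ra values therefore carries little weight.

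Age changed the genes in different directions before irradiation. In unirradiated marrow 2 of 5 were higher at 8 weeks than at 1 week and 1 was lower, where 27.4% of all genes were called higher and 37.5% lower. The 2 higher include Il5ra, which entered the tested set only through the 8-week groups. Epx was lower at 8 weeks by 0.72 ± 0.11 on the log2 scale (3.92 ± 0.03 against 4.64 ± 0.19, SD, n = 3, a fall to a level 1.65-fold below, adjusted p = 3.23e-05), and its 6 control arrays did not overlap. Ear1 was higher by 0.41 ± 0.08 (1.33-fold, adjusted p = 0.000287). The Il5ra estimate was 1.11 ± 0.23 higher, although the 1-week level was unmeasured. Its filter acted through the 8-week groups, the higher side of this comparison, so no p is given. Il5ra was 1.75-fold higher with each 1-week control raised to at least its lowest signal well above background. With background corrected by normexp its value was 0.39. The ages overlapped for both major basic protein genes, with differences of 0.02 ± 0.08 for Prg2 (adjusted p = 0.873) and -0.04 ± 0.08 for Prg3 (adjusted p = 0.697). On slide 3, which holds 1 control of each age, Epx differed by -0.53, Ear1 by 0.39 and Il5ra by 0.70.

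After irradiation 1 of 5 genes was higher and 2 were lower at 8 weeks than at 1 week, at 6 h (28.2% of all genes higher, 36.0% lower) and again at 24 h (33.5% higher, 27.7% lower). At 6 h the higher gene was Il5ra, which entered the tested set only through the 8-week groups. Epx was the gene with the largest age difference, -0.82 ± 0.11 at 6 h (adjusted p = 8.61e-06) and -0.73 ± 0.11 at 24 h (adjusted p = 2.96e-05). Prg2, which passed the test in neither direction in the controls, was lower at 8 weeks by 0.36 ± 0.08 at 6 h (adjusted p = 0.00126) and by 0.32 ± 0.08 at 24 h (adjusted p = 0.00304). Ear1 was within its spread, at 0.05 ± 0.08 (adjusted p = 0.632) and 0.07 ± 0.08 (adjusted p = 0.459).

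The remaining age calls were weak. Il5ra was called higher at 8 weeks at 6 h, with an estimate of 0.63 ± 0.23. The filter admitted it only through the 8-week groups, the higher side, so no p is given for this call. The call ended without 1-week 6 h replicate 1 (0.56), without 8-week 6 h replicate 1 (0.58) and with normexp (0.12). At 24 h the Il5ra difference was 0.34 ± 0.23 (adjusted p = 0.221). Prg3 differed by 0.07 ± 0.08 at 6 h (adjusted p = 0.461) and was higher at 8 weeks by 0.20 ± 0.08 at 24 h (adjusted p = 0.0471). That last call ended in 12 of 18 fits with 1 array left out (0.16 to 0.22, adjusted p up to 0.149). It held only without 1-week control replicate 2 or 3, 1-week 6 h replicate 1, or any 8-week 6 h array.

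The order of the 6 group means differed from gene to gene. For Epx it ran from 3.92 in 8-week controls through 4.39 (8 weeks, 6 h), 4.64 (1-week controls), 4.81 (8 weeks, 24 h) and 5.20 (1 week, 6 h) to 5.55 (1 week, 24 h). The arrays of neighbouring groups overlapped only between 8 weeks at 6 h and the 1-week controls. For Prg2 the order was 8.00 and 8.01 in the controls of 1 and 8 weeks, which overlap, then 8.41 and 8.65 at 8 weeks and 8.77 and 8.97 at 1 week, with no overlap between neighbours. Ear1 had separate controls, 4.71 at 1 week and 5.12 at 8 weeks, below 4 irradiated groups at 5.69, 5.73, 5.83 and 5.90 whose neighbours overlap. For Prg3 the controls overlapped at 3.36 and 3.40, then came 3.82 (1 week, 6 h), 3.89 (8 weeks, 6 h) and 3.99 (1 week, 24 h), each overlapping the next, and 4.19 (8 weeks, 24 h) stood apart. Il5ra was lowest in 1-week controls at -4.65, and its other 5 groups, from -3.95 to -3.31, overlapped their neighbours.

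Between 6 h and 24 h the granule genes differed by 0.14 to 0.43, with the 24 h mean higher for each. The median difference of all genes was -0.002 at 1 week and 0.098 at 8 weeks. At 1 week 1 of 5 was higher at 24 h (18.6% of all genes higher), and at 8 weeks 3 of 5 (33.0%). These counts moved with the processing: quantile normalization gave 0 and 1, and no scaling gave 2 and 1. The 1-week Epx call ended with quantile normalization (0.29, adjusted p = 0.0609) and normexp (0.30, adjusted p = 0.0812). At 8 weeks the Prg2 and Prg3 calls ended with quantile normalization (0.11 and 0.17, adjusted p = 0.272 and 0.123) and without scaling (0.18 and 0.23, adjusted p = 0.153 and 0.146). With all arrays and scaling, Epx rose at both ages, by 0.34 ± 0.11 (adjusted p = 0.0265) and 0.43 ± 0.11 (adjusted p = 0.00487). At 1 week Prg2 (0.21 ± 0.08, adjusted p = 0.0634), Prg3 (0.17 ± 0.08, adjusted p = 0.129) and Ear1 (0.14 ± 0.08, adjusted p = 0.177) missed the threshold. Prg2 passed it without 1-week control replicates 2 or 3 or 8-week 6 h replicates 1 or 3 (adjusted p = 0.0372, 0.0392, 0.0297 and 0.0485), and Prg3 without 8-week 6 h replicate 1 (adjusted p = 0.0439). The 1-week Epx call ended without 6 h replicate 1 (0.35, adjusted p = 0.0554) or 2 (0.32, adjusted p = 0.0751) and without 24 h replicate 2 (0.33, adjusted p = 0.0673) or 3 (0.33, adjusted p = 0.0689). At 8 weeks Prg2 was higher at 24 h by 0.24 ± 0.08 (adjusted p = 0.0233) and Prg3 by 0.29 ± 0.08 (adjusted p = 0.00748), while Ear1 did not pass the test (0.17 ± 0.08, adjusted p = 0.0909). The Prg2 call ended without 6 h replicate 2 (0.21, adjusted p = 0.0835) or 3 (0.17, adjusted p = 0.115) and without 24 h replicate 3 (0.21, adjusted p = 0.0778). The Ear1 difference was 0.26 (adjusted p = 0.010) without 6 h replicate 1, the array with the highest granule transcript of its group.

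Slides bear on this 8-week comparison. On slide 1, which holds that 6 h replicate 1, the 24 h array differed by -0.10 for Ear1, 0.03 for Epx, 0.01 for Prg2 and 0.04 for Prg3. On slide 2 the differences were 0.22, 0.56, 0.28 and 0.45 in the same order. With slide as a block Prg2 was at 0.18 (adjusted p = 0.0667), and a slide's part in the result and that of the mice on it cannot be told apart. At 1 week slide 4 gave 0.18 for Ear1, 0.42 for Epx, 0.28 for Prg2 and 0.15 for Prg3.

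Whether the response to irradiation depended on age was tested as the difference of the 2 responses. Of 5 genes, 2 responded less at 8 weeks at each time, where 8.09% of all genes were called lower at 6 h and 13.5% at 24 h. For Ear1 the response was smaller by 0.36 ± 0.11 at 6 h (adjusted p = 0.0354) and by 0.34 ± 0.11 at 24 h (adjusted p = 0.025). For Prg2 it was smaller by 0.37 ± 0.12 (adjusted p = 0.0365) and 0.34 ± 0.12 (adjusted p = 0.0296). Epx did not differ beyond its error (-0.09 ± 0.16, adjusted p = 0.722, and -0.01 ± 0.16, adjusted p = 0.973), nor did Prg3 (0.11 ± 0.12, adjusted p = 0.539, and 0.24 ± 0.12, adjusted p = 0.115). Il5ra was at -0.48 ± 0.33 (adjusted p = 0.321) and -0.78 ± 0.33 (adjusted p = 0.0655). The 24 h value of Il5ra passed without 1-week 24 h replicate 1 (-0.95, adjusted p = 0.0357) or 8-week 24 h replicate 3 (-1.03, adjusted p = 0.0146), and that of Prg3 without 8-week 6 h replicate 1 (0.24, adjusted p = 0.0377).

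These 4 calls lie close to the threshold. At 6 h the Ear1 call ended without 1-week control replicates 1 or 3, 1-week 6 h replicate 1, 8-week control replicates 2 or 3 and 8-week 6 h replicates 2 or 3, with a highest adjusted p of 0.087. The Prg2 call ended without the same arrays and also without 1-week 6 h replicate 3, with a highest adjusted p of 0.085. At 24 h Ear1 lost it without 1-week control replicates 1 or 3, 1-week 24 h replicate 2, 8-week control replicate 2 and 8-week 24 h replicate 1 (highest adjusted p = 0.069). Prg2 lost it without 1-week control replicates 1 or 3, 1-week 24 h replicate 3, 8-week control replicates 2 or 3 and 8-week 24 h replicates 1 or 2 (highest adjusted p = 0.0805). The differences themselves stayed negative in all 18 of these fits, from -0.45 to -0.28 for Ear1 and from -0.47 to -0.25 for Prg2 over both times. Processing ended them too. Without scaling between arrays all 4 missed the threshold, at -0.20 (adjusted p = 0.429) and -0.31 (adjusted p = 0.137) for Ear1 and -0.21 (adjusted p = 0.345) and -0.31 (adjusted p = 0.0972) for Prg2. With normexp the Ear1 values were -0.29 (adjusted p = 0.158) and -0.27 (adjusted p = 0.126), and the 24 h value of Prg2 was -0.34 (adjusted p = 0.0707). Both 6 h calls also ended with the authors' series matrix values (adjusted p = 0.0648 for Ear1 and 0.0595 for Prg2), with no filter on dim genes (0.0553 and 0.0819) and with no intensity trend (0.0508 and 0.0514). The 24 h call of Prg2 ended with no filter (adjusted p = 0.0642), and its 6 h call with the replicate number as a block (adjusted p = 0.0501). With slide as a block the 6 h values were -0.34 for Ear1 (adjusted p = 0.145) and -0.32 for Prg2 (adjusted p = 0.12).

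Scaling is part of every value above, and the irradiated arrays were dimmer as a whole. Without scaling between arrays the median difference of all genes was -0.42, -0.35, -0.23 and -0.19 in the 4 comparisons, and 6.98%, 8.24%, 15.3% and 26.6% of the called genes were higher, against 49.2%, 51.2%, 52.0% and 66.2% with scaling. The granule genes nevertheless showed no negative difference. Ear1 remained higher in all 4 comparisons, at 0.56, 0.78, 0.36 and 0.47 (adjusted p = 0.000184, 1.59e-05, 0.0101 and 0.00115). Prg2 remained higher in 3, at 0.35, 0.64 and 0.32 (adjusted p = 0.00389, 4.30e-05 and 0.00819), and was at 0.14 in 8-week marrow at 6 h (adjusted p = 0.23).

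Epx and Prg3 depended more on it. Epx was at 0.14 (adjusted p = 0.357) and 0.57 (adjusted p = 0.00176) at 1 week and at 0.22 (adjusted p = 0.186) and 0.58 (adjusted p = 0.00113) at 8 weeks. Prg3 was at 0.00 (adjusted p = 0.997) and 0.25 (adjusted p = 0.0808) at 1 week and at 0.28 (adjusted p = 0.0634) and 0.51 (adjusted p = 0.00154) at 8 weeks. The raw Prg3 signal shows the same: 6863, 7602 and 7188 on the 1-week controls against 6186, 7406 and 8197 at 6 h, which overlap. Relative to other genes of the same array Prg3 was higher, and its unscaled difference at 1 week did not pass the test at either time. Il5ra lost both of its calls at 1 week, at 0.28 (adjusted p = 0.344) and 0.38 (adjusted p = 0.196), and its values at 8 weeks were -0.03 (adjusted p = 0.922) and -0.37 (adjusted p = 0.225). Quantile normalization kept every granule call against controls and lowered Prg2 at 8 weeks to 0.22 at 6 h (adjusted p = 0.027) and 0.33 at 24 h (adjusted p = 0.0018).

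**Figure D3:**
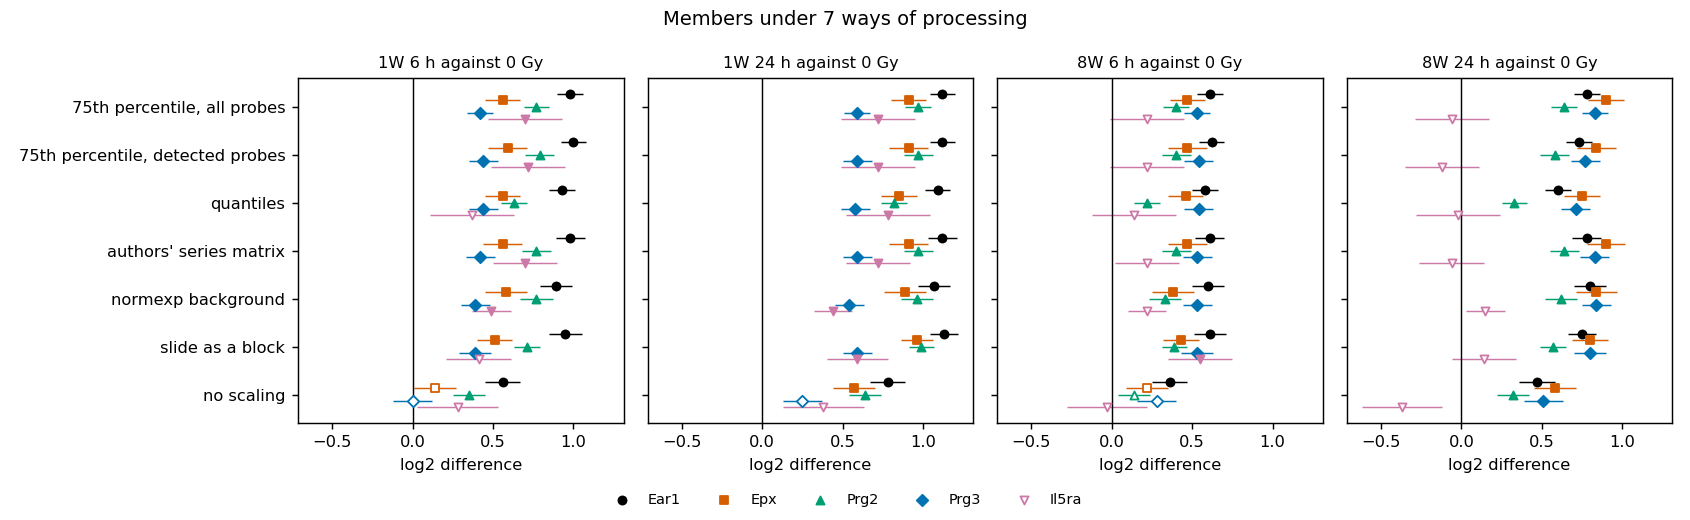
Log2 difference of each gene from unirradiated marrow of the same age (marker and SE) under 7 ways of processing, with filled markers called at adjusted p under 0.05. The 4 granule genes keep positive values under the 6 scaled settings, and without scaling Prg3 falls to 0.00 at 1 week and 6 h.

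Other ribonucleases of the Ear family were measured by 4 further probes. On chromosome 14 of GRCm38.p6 Ear10 (bases 43922898 to 43923596) lies close to Ear1 (43818765 to 43819639), and Ear6 (51853768 to 51854643), Rnase2a (51255261 to 51256112) and Rnase2b (51162260 to 51163018) lie in a separate stretch. The probe of Rnase2b was too dim to test, well above background on 1 of 18 arrays. Ear6, Ear10 and Rnase2a were higher in all 4 irradiated groups, as 3 of 3 tested. The share of all genes called higher was 25.5% and 18.4% at 1 week and 23.9% and 38.3% at 8 weeks. Ear10 rose by 1.01 ± 0.11 and 1.22 ± 0.11 at 1 week and by 0.72 ± 0.11 and 0.79 ± 0.11 at 8 weeks. Rnase2a rose by 0.92 ± 0.09 and 1.00 ± 0.09 at 1 week and by 0.58 ± 0.09 and 0.76 ± 0.09 at 8 weeks. Ear6 rose by 0.77 ± 0.09 and 0.75 ± 0.09, then 0.55 ± 0.09 and 0.65 ± 0.09. All 3 were also higher at 8 weeks than at 1 week without irradiation, by 0.43 for Ear6, 0.40 for Ear10 and 0.43 for Rnase2a, beside 0.41 for Ear1. Whether these probes and that of Ear1 read each other's transcripts was not tested, so their calls are not taken as separate measurements. Without scaling between arrays the 3 kept positive differences, and 3, 3, 2 and 3 were called, with Ear6 at 0.30 (adjusted p = 0.07) at 8 weeks and 6 h. Of all 11884 genes 512, 558, 845 and 1583 were then called higher.

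Surface and enzyme genes of eosinophils were taken as a named list of 18. Whether other marrow cells also express these genes was not tested. Of the 18 genes 16 were tested for a difference. They were called higher in 13, 13, 13 and 12 cases over the 4 comparisons, with medians of 0.63, 0.78, 0.50 and 0.59. Over all genes 25.5%, 18.4%, 23.9% and 38.3% were called higher. Ccr3, the eotaxin receptor, was at -1.37 ± 0.13 (SD, n = 3) in 1-week controls and rose by 1.00 ± 0.12 and 1.25 ± 0.12, and from 0.28 ± 0.13 (SD, n = 3) in 8-week controls by 0.70 ± 0.12 and 1.25 ± 0.12. Siglecf, a sialic acid-binding receptor of eosinophils, rose by 0.94 ± 0.09 and 0.90 ± 0.09 at 1 week and by 0.44 ± 0.09 and 0.51 ± 0.09 at 8 weeks. Ltc4s, the leukotriene C4 synthase, rose by 1.23 ± 0.15 and 1.42 ± 0.15, then 1.18 ± 0.15 and 1.84 ± 0.15. Il1rl1, the interleukin-33 receptor, was the gene that fell, by 0.35 ± 0.08 in 8-week marrow at 24 h. Ccr3 differed with age in the opposite direction to Epx, 1.65 ± 0.12 higher in 8-week controls (adjusted p = 5.33e-09). Without scaling 7, 10, 7 and 8 of the 16 were called higher and 0, 2, 0 and 1 lower, with medians of 0.20, 0.44, 0.25 and 0.27. Of all 11884 genes 7333, 6775, 5519 and 5954 were called without scaling, 512, 558, 845 and 1583 of them higher. Siglecf then missed the threshold at 8 weeks, at 0.19 (adjusted p = 0.187) and 0.20 (adjusted p = 0.163).

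Of the ligands that act on eosinophils several were not well above background. Probes of Il5, Il3, Ccl11 and Tslp were well above it on 0 of 18 arrays, and those of Csf2 and Il25 on 1 each. Of 12 listed ligands 6 were tested, with 3, 2, 3 and 4 higher and 1 lower in each comparison. Over all genes 25.5%, 18.4%, 23.9% and 38.3% were higher. The ligand counts include Ccl7 and Il33, which each passed the filter only through the group where it was highest. Ccl12, also tested, was well above background on 7 of 18 arrays. The ligand counts therefore carry little weight. Ccl7, a chemokine, passed the filter only through 8-week marrow at 24 h, the group where it was highest, with 3 of 3 arrays well above background. It was well above background on 0 of 3 arrays of both control groups and on 1 of 3 at 6 h at each age. For its folds each control array was therefore raised to at least that array's lowest signal well above background. So set, Ccl7 was 1.97-fold higher in 8-week marrow at 24 h. At 6 h it was 1.51-fold higher at 1 week and 1.41-fold higher at 8 weeks. Arrays not well above background enter both 6 h means, so the 6 h folds are not bounds. At 1 week and 24 h neither group was measured. No p is given for Ccl7, since the filter passed it only through its highest group. Il33, an alarmin of stromal cells, passed only through the 8-week controls, where it was highest (3 of 3 arrays), and was well above background on 2 of 3 of the 1-week controls and on 0 of 3 in each irradiated group. With the irradiated arrays raised in the same way, Il33 was 1.28-fold and 1.22-fold lower at 1 week and 2.11-fold and 2.48-fold lower at 8 weeks. The 1-week control mean includes an array not well above background, so the 1-week folds are not bounds. For the same reason as with Ccl7, no p is given.

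Of 12 tested transcription factors of the eosinophil path, 4, 6, 5 and 7 were higher and 0, 0, 0 and 2 lower, with medians of 0.16, 0.22, 0.21 and 0.34. The share of all genes called higher was 25.5%, 18.4%, 23.9% and 38.3%. Gata1, which specifies the lineage and also serves erythroid cells, passed the test in none of the 4 comparisons (0.19, 0.11, -0.03 and -0.17, each ± 0.08). It was lower at 8 weeks than at 1 week without irradiation by 0.99 ± 0.08 (adjusted p = 1.97e-08). No probe was matched to Cebpe. Id2, an inhibitor of helix-loop-helix factors, rose in all 4, by 0.80 ± 0.07, 0.83 ± 0.07, 1.02 ± 0.07 and 0.69 ± 0.07, and kept these calls without scaling. The list moved with the scaling, as all genes did. Without scaling 1, 1, 2 and 2 were higher and 5, 3, 2 and 4 lower, with medians of -0.27, -0.12, -0.05 and 0.03. Of all 11884 genes 7333, 6775, 5519 and 5954 were then called. Among those 512, 558, 845 and 1583 were higher and the rest lower. The median differences of all genes were -0.42, -0.35, -0.23 and -0.19. Gata1 was called higher with quantile normalization at 1 week and 6 h (0.21, adjusted p = 0.0269), and lower at 8 weeks and 24 h both with it (-0.23, adjusted p = 0.0175) and without scaling (-0.48, adjusted p = 0.0028).

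Genes of other marrow cells moved beside these. For the counts with scaling that follow, 25.5%, 18.4%, 23.9% and 38.3% of all genes were called higher in the 4 comparisons. The share called lower was 26.3%, 17.6%, 22.1% and 19.5%. Late neutrophil genes, which serve the secondary granules and surface of the mature neutrophil, were higher in 12, 12, 11 and 12 of 12, with medians of 0.70, 0.77, 0.50 and 0.62, near those of the eosinophil genes. Genes of the primary granules, made in promyelocytes, were higher in 1, 0, 0 and 7 of 8 and lower in 7, 4, 0 and 0. Erythroid genes were higher in 6, 6, 5 and 2 of 8 and lower in 0, 0, 1 and 4, with medians of 0.64, 0.31, 0.28 and -0.28. Resident macrophage genes were higher in 0, 11, 11 and 13 of 13 and lower in 11, 0, 0 and 0, with medians of -0.99, 0.56, 0.59 and 1.56. Monocyte genes were higher in 6, 2, 1 and 1 of 9 and lower in 0, 1, 2 and 5. Mast cell and basophil genes were higher in 2, 1, 6 and 3 of 10 and lower in 3, 2, 0 and 0. B-cell precursor genes were lower in 9, 9, 10 and 10 of 10, with medians from -1.38 to -1.87. Without scaling 7333, 6775, 5519 and 5954 of all 11884 genes were called. Among those 512, 558, 845 and 1583 were higher and the rest lower. The late neutrophil genes were then higher in 7, 11, 7 and 8 of 12 and lower in none, with medians of 0.28, 0.43, 0.25 and 0.31. The mast cell and basophil genes were higher in 0, 0, 2 and 2 and lower in 5, 7, 0 and 2. The erythroid genes were then higher in 3, 2, 1 and 1 and lower in 1, 1, 1 and 5, the monocyte genes higher in 0, 0, 0 and 1 and lower in 1, 3, 5 and 7, and the macrophage genes higher in 0, 6, 6 and 13 and lower in 13, 0, 0 and 0. The part of these other cells in the level of the eosinophil genes was not tested.

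**Figure D4:**
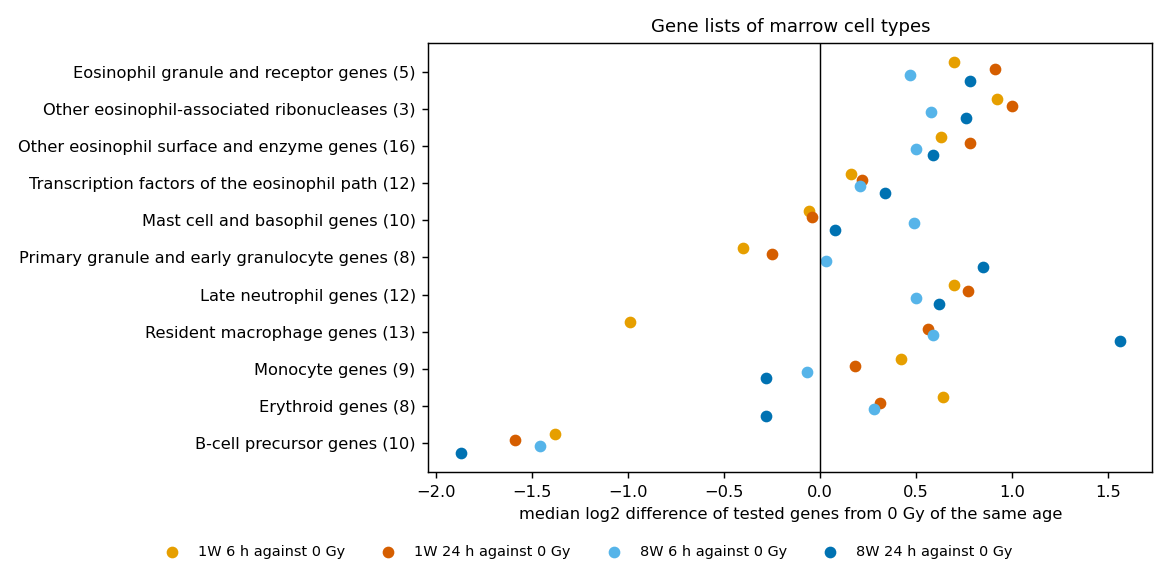
Median log2 difference of the tested genes of 11 lists from unirradiated marrow of the same age, 1 point per comparison, with the number of tested genes in brackets. The 3 eosinophil lists of granule, ribonuclease and surface genes and the late neutrophil list lie between 0.47 and 1.00 in all 4 comparisons, and B-cell precursor genes lie between -1.87 and -1.38.

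The genes most like each member over the 18 arrays were taken by Pearson's r, as a description, since all arrays share 6 group means and the same scaling. Ear1 was most like Rnase2a (r = 0.986), Ear10 (0.986) and Ccndbp1 (0.969). Prg2 was most like Perp (0.957), Alox15 (0.951) and Bcl2a1b (0.926), and Prg3 like Arap1 (0.945), Camk1 (0.94) and Slc15a3 (0.923). The genes nearest to Epx were Bglap3 (0.956), Bglap (0.955) and Aifm2 (0.936), where Bglap genes encode the bone protein osteocalcin. Il5ra was nearest to Txnip (0.919), Npepps (0.917) and Arhgef11 (0.907).

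Among themselves the granule genes varied together also within groups. After group means were removed, r over 18 arrays was 0.883 between Epx and Prg2, 0.828 between Epx and Prg3, 0.825 between Ear1 and Prg2, 0.795 between Prg2 and Prg3, 0.714 between Ear1 and Epx and 0.66 between Ear1 and Prg3. The 8-week 6 h replicate 1, highest of its group for all 4, is part of this. Il5ra followed none of them closely, with r from 0.033 (Epx) to 0.259 (Ear1). Ccr3 also varied apart from them within groups, with r from -0.0453 (Epx) to 0.0942 (Prg2).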

How the data were processed

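Whole bone marrow RNA was hybridised to 18 one-colour (Cy3) Agilent mouse arrays, grouped by their labels. Spot intensity in the deposited files is already background-subtracted (Agilent Feature Extraction, release 9.5.1.1 per the file headers and 11.5.1 in the submitters' processing notes), with no scaling of one array to another. Each spot's outlier, saturation and background flags come from the same deposited files as other values (0 or 1). The deposited series matrix holds log2 values that the authors scaled and centred, used as an alternative. Recomputing them from the array files for 41116 probes, by subtracting each array's 75th percentile and then each probe's median over the 18 arrays, gave r and slope of 1 on every array, so scale, centring and direction are known; the array medians run from -0.17 to 0.24.

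Control spots and spots flagged as outliers (77 to 123 per array) were left out, spots of a probe were averaged, and the array's 75th percentile over non-control probes was subtracted. SystematicName accessions gave a RefSeq symbol (GRCm38.p6 table) to 24844 of 41174 probes, and the brightest probe stood for a gene. A gene was tested if some group had it well above background on each of its 3 arrays. limma 3.58.1 in R 4.3.3 fitted 6 group means with an intensity trend (12 residual and 4.33 prior degrees of freedom) and was tested on simulated data. There were 11 comparisons, two-sided. The number of arrays limits the precision.

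Replicate numbers were checked for pairing: 45 same-number pairs had residual correlations from -0.27 to 0.32 (median -0.015), 9 of them over 0.1, so no pairing was used. Genes named are the 6 members, up to 3 per list by smallest adjusted p (some are given as counts only), Ccr3, Siglecf, Gata1, the other probed Ear genes and the 3 genes most like each member. Il1rl1, Il5, Il3, Ccl11, Tslp, Csf2, Il25 and Rnase2b are named as exceptions to a count or as undetected. The members and lists were chosen with earlier results of these data known. Alternatives were the percentile over detected probes, quantile normalization, normexp, the series matrix, no filter, a stricter filter, all probes averaged, no trend, slide or replicate as a block, and each array left out. Chosen after seeing the data were normexp on median signal, since no mean signal is used here (offset 50, extreme local backgrounds capped), and no scaling.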

Additional observations from a re-analysis of the deposited data

Results flagged for a closer look

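In 4 cases the response to 2 Gy differed between the ages by a test of the difference itself (limma, adjusted over 11884 genes). Ear1 responded less at 8 weeks than at 1 week, by -0.36 ± 0.11 at 6 h (adjusted p = 0.0354) and -0.34 ± 0.11 at 24 h (adjusted p = 0.025). For Ear1 the irradiated means of both ages lie from 5.69 to 5.90, and the control means lie at 4.71 (1 week) and 5.12 (8 weeks). Prg2 responded less at 8 weeks by -0.37 ± 0.12 at 6 h (adjusted p = 0.0365) and -0.34 ± 0.12 at 24 h (adjusted p = 0.0296). For Prg2 the control means lie at 8.00 and 8.01, and the irradiated means are lower at 8 weeks (8.41 and 8.65) than at 1 week (8.77 and 8.97). The 2 times share their control arrays. With 1 array left out in turn, the Ear1 call ended in 7 of 18 fits at 6 h and 5 at 24 h, and the Prg2 call in 8 and 7, with adjusted p up to 0.087. Without scaling between arrays none of the 4 passed (adjusted p from 0.0972 to 0.429), and both 6 h calls also ended with the series matrix values, no intensity trend, no filter on dim genes or slide as a block.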

How the results depend on the processing

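Of the 5 tested genes, the number called against controls was 4 to 5 at 1 week at both times and 4 at 8 weeks at both times with 1 array left out in turn. It was 3 between control ages, and 2 to 3 between ages at 6 h and at 24 h. With all arrays, the counts between control ages and between ages at 6 h include Il5ra, admitted only through the 8-week groups. The number called ran from 0 to 3 for 24 h against 6 h at 1 week (1 with all arrays), 2 to 4 at 8 weeks (3), 0 to 2 for the age difference at 6 h (2) and 0 to 3 at 24 h (2). Without scaling, 2, 3 and 1 genes were called at 1 week 6 h, 1 week 24 h and 8 weeks 6 h, 2 and 1 for 24 h against 6 h at 1 and 8 weeks, and 0 and 0 for the age differences. Quantile normalization gave 0 and 1 for 24 h against 6 h. Normexp gave 0 for that comparison at 1 week, and 1 and 0 for the age differences. The age difference at 6 h had 0 calls with the series matrix, no filter, no trend or slide as a block, and the one at 24 h had 1 with no filter; slide as a block gave 2 for 24 h against 6 h at 1 week. With the replicate number as a block the age difference at 6 h had 1 call, and no other count of genes moved by over 1.5 times; the numbers do not pair the arrays. The cause was not tested, except that no filter adds genes to the adjustment. The percentile over detected probes, the stricter filter and the mean of all probes moved none of these counts by over 1.5 times. Il5ra drops out under the stricter filter. Over all genes, the age difference at 6 h fell from 2210 to 1370 calls with slide as a block and 1146 without scaling. Without scaling, calls went from 4279 to 6775 at 1 week 24 h, 4299 to 2569 and 5872 to 3887 for 24 h against 6 h at 1 and 8 weeks, and 5001 to 2927 for the age difference at 24 h. Other gene names for the probes were not run, since no second annotation is used here. The Il5ra signal, near background, limits what could be detected for that gene.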
